A study of Mus musculus with 12 samples.

Results

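The genes described here are 10 genes of fatty acid synthesis in mouse colonic mucosa together with the sterol regulatory element-binding proteins (SREBPs) that control them. They were chosen by name, as the rows with the symbols Srebf1, Srebf2, Acly, Me1, Acaca, Fasn, Elovl6, Scd1, Scd2 and Fads1, and all 10 were present among 38087 genes with an Ensembl identifier. All 10 were also among the 13889 genes that passed the filter on low counts. Messenger RNA was sequenced from 6 Sgo1-/+ and 6 wild type samples. Sgo1-/+ mice carry a single working copy of the gene for shugoshin 1, which guards the cohesion of sister chromatids, and the series was made to study the effect of chromosome instability on the colon. Mice of both genotypes were given 4 mg/kg of the colon carcinogen azoxymethane 2 times a week, starting at 8 weeks of age and ending at 12 weeks. Tissue was taken at 9 months, so there was no group without the carcinogen. The labels do not say that each sample came from a separate mouse, so the spread behind each p-value may be partly technical, and strain and sex are not stated.

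Fatty acids are built in the cytosol from acetyl-CoA. ATP citrate lyase makes acetyl-CoA from citrate, acetyl-CoA carboxylase turns it into malonyl-CoA, and fatty acid synthase joins these units into palmitate with NADPH as the reductant. Elongases and desaturases then lengthen the chain and add double bonds. SREBP-1, the product of Srebf1, is the main activator of these genes, and SREBP-2, the product of Srebf2, acts mostly on cholesterol synthesis and uptake. Both are held in the endoplasmic reticulum when sterols are plentiful and are released by cleavage in the Golgi when they are scarce, so that their mRNA level does not give the amount of active protein.

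The promoters of Fasn and Srebf2 are shown because both genes are known SREBP targets and both windows hold the first letters of a sterol regulatory element. Each is the 250 bases before the annotated start in RefSeq (build GRCm38.p6), at chr11:120824548-120824797 on the minus strand for Fasn and chr15:82147019-82147268 on the plus strand for Srebf2. Capitals mark ATCACCC, which is followed by CAC in the classical sterol regulatory element, and the CCAAT box, CCAAT or ATTGG, where NF-Y binds.
Fasn promoter: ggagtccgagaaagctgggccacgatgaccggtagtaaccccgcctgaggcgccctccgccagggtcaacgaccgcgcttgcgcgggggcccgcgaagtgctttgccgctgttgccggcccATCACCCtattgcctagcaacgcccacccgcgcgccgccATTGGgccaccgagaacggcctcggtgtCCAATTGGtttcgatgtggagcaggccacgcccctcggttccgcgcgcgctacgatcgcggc
Srebf2 promoter: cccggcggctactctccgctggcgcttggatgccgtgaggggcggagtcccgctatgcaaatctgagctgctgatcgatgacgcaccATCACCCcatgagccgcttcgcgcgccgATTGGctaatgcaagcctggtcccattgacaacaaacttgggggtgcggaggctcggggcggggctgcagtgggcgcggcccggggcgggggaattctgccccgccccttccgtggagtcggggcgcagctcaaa
The run ATCACCC began 129 bases before the start in Fasn and 163 bases before it in Srebf2, and it was chosen as a motif after the windows were seen. On either strand it was found in 2.28% of 32851 promoter windows of the same length. The full element was in 0.0731% of windows, its core CACCCCAC in 2.58% and the E-box CACGTG in 6.02%, and none of these was in any of the 10 windows that matched 7 of the 10 genes. Scd1, Scd2 and Fads1 had no entry. The only Acaca window, at chr11:84195188-84195437, lies inside the gene, which starts at 84129672, so the bases before that start were not searched. Some windows of Me1 and Srebf1 also lie inside the gene. Fasn held 3 CCAAT boxes, with a pair overlapping at 62 and 59 bases before the start, and Srebf2 held 1, against 33.8% of all windows with at least 1. The GC box GGGCGG was in 4 places each in the Acly and Srebf2 windows and in none for Fasn, against 32.7% of all windows. These matches are descriptions of the letters only.

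Libraries held between 5805514 and 9937114 counts in Sgo1-/+ and between 5414437 and 8729081 counts in wild type. Levels are given as CPM, counts scaled to a common library total, after TMM scaling for library composition. The 3 mitochondrial-like rows Gm13340, Gm13341 and Gm11410 took 10.4% to 37.7% of counts in Sgo1-/+ and 14.2% to 38.8% in wild type. They were highest in Sgo1-/+ replicate 3 and wild type replicates 3 and 5. Their summed level had a median of 108741 CPM in Sgo1-/+ and 227489 CPM in wild type. All 3 were lower in Sgo1-/+, with log2 changes between -0.88 and -0.61 (adjusted p between 0.649 and 0.739 in edgeR). A fit with this share as a covariate thus cannot fully separate it from genotype. The transcript of the targeted gene, listed as Sgol1, was at 2.33 ± 0.41 CPM in Sgo1-/+ and 3.65 ± 1.79 CPM in wild type (SD, n = 6 each), a log2 change of -0.67 that did not pass the threshold in edgeR (adjusted p = 0.551). Summed levels of 12 colon epithelium markers ran from 17538 to 27943 CPM in Sgo1-/+ and from 15986 to 27169 CPM in wild type, and all 12 were detected well enough to be tested. Smooth muscle, fibroblast, and nerve and glia lists summed to at most 31.5, 32.8 and 44.1 CPM in Sgo1-/+ and 24.1, 42.9 and 67.7 CPM in wild type. Immune cell markers summed to between 86.7 and 161 CPM in Sgo1-/+ and between 147 and 352 CPM in wild type, and 6 of the 7 tested were lower in Sgo1-/+. Proliferation genes were higher in Sgo1-/+ in 10 of 10, 5 of them at an unadjusted edgeR p under 0.05. Over all genes tested 4.31% were higher at that threshold. In such bulk tissue fewer cells of a type and less RNA per cell cannot be told apart.

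The question was whether the fatty acid synthesis program differed between Sgo1-/+ and wild type mucosa. Of the 10 genes 7 had higher levels in Sgo1-/+ and 3 had lower levels, with a median log2 change of 0.41 against -0.0057 over all genes tested. The higher ones were both SREBP genes, Acly, Fasn, Scd1, Scd2 and Fads1, and the lower ones were Me1, Acaca and Elovl6, of which Me1 and Acaca turned positive under scaling by total counts, which moved the median of all genes to 0.31. No gene of the 10 passed an adjusted p of 0.05 in edgeR's quasi-likelihood test, in which 0% of all 13889 genes passed, and the members' adjusted p-values ran from 0.491 to 0.762. DESeq2, which called 0.217% of genes, and limma-voom, which called 0%, also called 0 of the 10. The unadjusted edgeR p was under 0.05 for 7 of the 10, where the background was 9.04% of all genes tested. Of these 5 were higher, against a background of 4.31%, and 2 were lower, against 4.73%. Without the 3 libraries highest in mitochondrial-like rows 6 of the genes were at an unadjusted p under 0.05, against a background of 11.6%. When the share of these rows was a covariate there were 2, Fasn and Scd2, against a background of 10.1%. Among the 8 libraries whose column names lack a suffix there was 1, Scd2, against 3.98%. The genotypes overlapped in every one of the 10 genes, while 0.346% of all genes had no overlap.

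**Figure D1:**
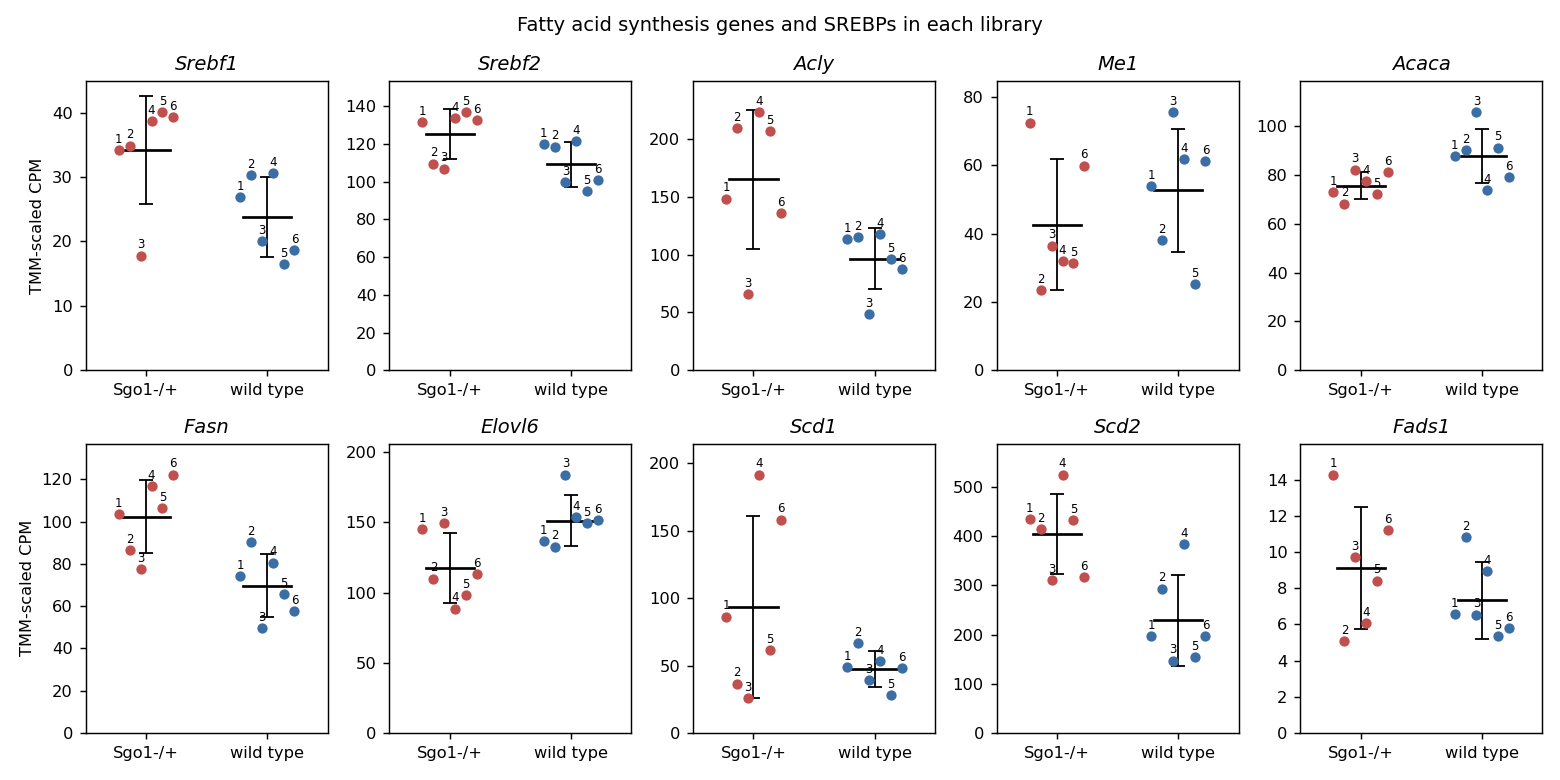
TMM-scaled CPM (y axis, from 0) of each of the 10 genes in the 6 Sgo1-/+ and 6 wild type libraries, with the replicate number above each point, the mean as a bar and the SD as whiskers. Fasn and Scd2 had all 6 Sgo1-/+ libraries above the wild type median, Acaca and Elovl6 had all 6 below it (under total-count scaling their log2 changes were 0.12 and -0.045), and Scd1 was spread from 25.9 to 192 CPM in Sgo1-/+.

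Of the regulators, Srebf1 (ENSMUSG00000020538, protein-coding, chromosome 11, 60199089 to 60222581 in build mm10) had a lowest level of 17.8, a median of 36.8 and a highest level of 40.1 CPM in Sgo1-/+, against 16.5, 23.5 and 30.6 CPM in wild type. In Sgo1-/+ 5 libraries were above every wild type library, and replicate 3 was above wild type replicate 5 alone. The log2 change was 0.52 ± 0.21 (SE; edgeR unadjusted p = 0.0261, adjusted p = 0.530), or 1.43-fold, and an exact two-sided permutation of mean log2 CPM gave p = 0.0628. With single libraries left out the difference ran from 0.41 without wild type replicate 5 (exact permutation p = 0.119) to 0.68 without Sgo1-/+ replicate 3 (exact permutation p = 0.00649). Fitted with the mitochondrial-like share the log2 change was 0.23 ± 0.13, and without the 3 libraries highest in that share it was 0.50 ± 0.14. Counts are per gene, so the 1a and 1c forms of SREBP-1, which start at separate promoters, were not resolved.

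Srebf2 (ENSMUSG00000022463, protein-coding, chromosome 15, 82147266 to 82205376) was the more abundant SREBP gene per kilobase of exon. It ran from 107 through a median of 132 to 137 CPM in Sgo1-/+, against 95.2, 109.7 and 121 CPM in wild type. In Sgo1-/+ 4 libraries were above every wild type library and replicates 2 and 3 were within the wild type range. This gave a log2 change of 0.20 ± 0.11 (edgeR unadjusted p = 0.0830, adjusted p = 0.583). Mean log2 CPM differed by 0.20 with all libraries (exact two-sided permutation p = 0.0628). With single libraries left out this ran from 0.16 without wild type replicate 5 (exact permutation p = 0.115) to 0.24 without Sgo1-/+ replicate 3 (exact permutation p = 0.0303). The log2 change in edgeR was 0.095 ± 0.082 when the mitochondrial-like share was fitted.

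Acly encodes ATP citrate lyase (ENSMUSG00000020917, protein-coding, chromosome 11, 100476353 to 100528000). Its lowest, median and highest levels were 66.0, 178 and 223 CPM in Sgo1-/+ and 48.7, 105 and 118 CPM in wild type. Sgo1-/+ replicates 2, 4 and 5 stood highest, at 209, 223 and 207 CPM, and replicates 1 and 6 were also above every wild type library, at 148 and 136 CPM. Sgo1-/+ replicate 3 was below all wild type libraries but replicate 3. The log2 change was 0.78 ± 0.27 (edgeR unadjusted p = 0.0138, adjusted p = 0.524), a 1.71-fold difference, and the exact permutation p was 0.0541. Without Sgo1-/+ replicate 3 the groups differed by 0.97 in mean log2 CPM (exact permutation p = 0.00216, the smallest that these splits can give). Leaving out that library also raised the share of all genes at an unadjusted edgeR p under 0.05 from 9.04% to 18.2%. Without wild type replicate 3 the groups differed by 0.54 (exact permutation p = 0.108), and without Sgo1-/+ replicate 2 by 0.64 (exact permutation p = 0.113, the highest of these). Me1 encodes cytosolic malic enzyme, a source of NADPH (ENSMUSG00000032418, protein-coding, chromosome 9, 86581363 to 86695914). It had 23.5, 34.2 and 72.5 CPM as lowest, median and highest values in Sgo1-/+, against 25.3, 57.5 and 75.6 CPM in wild type. Both groups spanned nearly the same range, and the log2 change of -0.30 ± 0.30 was about the size of its SE (edgeR adjusted p = 0.762). It was -0.51 without Sgo1-/+ replicate 1, -0.16 with Sgo1-/+ replicate 2 left out and -0.17 with wild type replicate 3 left out.

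Acaca and Fasn catalyse consecutive steps and, after TMM scaling but not after scaling by total counts, differed in opposite directions. Acaca encodes acetyl-CoA carboxylase 1 (ENSMUSG00000020532, protein-coding, chromosome 11, 84129672 to 84401651). It had 68.2, 75.2 and 82.2 CPM as lowest, median and highest values in Sgo1-/+, against 73.9, 88.8 and 106 CPM in wild type. All 6 Sgo1-/+ libraries were below the wild type median, a pattern whose share over all genes was not computed. Of them 3 were below every wild type library. The log2 change was -0.22 ± 0.10 (edgeR unadjusted p = 0.0498, adjusted p = 0.550), and the exact permutation p of 0.0346 was above 0.05 when any of 8 single libraries was left out, reaching at most 0.0714. Fasn encodes fatty acid synthase (ENSMUSG00000025153, protein-coding, chromosome 11, 120805940 to 120824178). Levels were 77.6, 105 and 122 CPM in Sgo1-/+ and 49.8, 70.0 and 90.2 CPM in wild type, again as lowest, median and highest. Every Sgo1-/+ library was above the wild type median and 4 were above every wild type library, while 7.26% of all genes had all 6 above that median. The means were 102 ± 17.3 CPM in Sgo1-/+ and 69.7 ± 14.99 CPM in wild type (SD, n = 6 each). This was a log2 change of 0.55 ± 0.16 (edgeR unadjusted p = 0.00350, adjusted p = 0.491), or 1.47-fold, with an exact permutation p of 0.0108. Over the alternatives that left out single libraries it ran from 0.48 to 0.66.

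Elovl6, the elongase that takes palmitate to stearate (ENSMUSG00000041220, protein-coding, chromosome 3, 129532386 to 129638495), had lower levels in Sgo1-/+. They were 88.5, 112 and 149 CPM in Sgo1-/+ and 133, 150.5 and 184 CPM in wild type. All 6 Sgo1-/+ libraries were below the wild type median, a pattern whose share over all genes was not computed, and 4 were below every wild type library. This was a log2 change of -0.37 ± 0.14 (edgeR unadjusted p = 0.0210, adjusted p = 0.527), or 0.775 times the wild type level, with an exact permutation p of 0.0260. Under scaling by total counts the log2 change was -0.045 ± 0.18 and the exact permutation p was 0.727. Sgo1-/+ replicates 1 and 3, at 145 and 149 CPM, were inside the wild type range.

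The stearoyl-CoA desaturases Scd1 and Scd2 put the first double bond into stearate and palmitate, and their genes lie in the same cluster on chromosome 19. Scd2 (ENSMUSG00000025203, protein-coding, 44293676 to 44306864) was the most abundant of the 10 per kilobase. It ran from 310.2 through a median of 423 to 525 CPM in Sgo1-/+, against 147, 197 and 384 CPM in wild type. Every Sgo1-/+ library was above the wild type median and 4 were above every wild type library, the highest of which was wild type replicate 4. The means were 405 ± 81.3 CPM in Sgo1-/+ and 229 ± 92.4 CPM in wild type (SD, n = 6 each). The log2 change was 0.82 ± 0.23 (edgeR unadjusted p = 0.00348, adjusted p = 0.491), a 1.77-fold difference, with an exact permutation p of 0.00866. It stayed within 0.64 and 1.11 over the 25 alternatives, with adjusted p-values between 0.103 and 0.999.

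Scd1 (ENSMUSG00000037071, protein-coding, 44394451 to 44407709) had a wider spread. Its lowest, median and highest levels were 25.9, 73.9 and 192 CPM in Sgo1-/+ and 27.99, 48.6 and 66.7 CPM in wild type. Sgo1-/+ replicates 4, 6 and 1, at 192, 158 and 86.3 CPM, were above every wild type library, while replicates 2 and 3, at 36.5 and 25.9 CPM, were among the lowest of all. Its log2 change was 0.98 ± 0.42 (edgeR unadjusted p = 0.0362, adjusted p = 0.536), or 1.97-fold. Mean log2 CPM was 0.67 higher in Sgo1-/+, with an exact permutation p of 0.210. Without Sgo1-/+ replicate 4 the edgeR log2 change was 0.65, less than the full value by over 1.5 times. The ratio of Scd2 to Scd1 per kilobase of exon ran from 1.79 to 10.7 in Sgo1-/+ and from 3.38 to 6.47 in wild type. The lowest ratios were those of Sgo1-/+ replicates 6 and 4, at 1.79 and 2.46, and the highest those of replicates 3 and 2, at 10.7 and 10.1. Scd3 and Scd4, paralogs in the same cluster, reached at most 1.52 and 2.87 CPM in Sgo1-/+ and 2.68 and 1.60 CPM in wild type. The authors' counts of these paralogs may share reads, so that the split among them is uncertain.

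Fads1, the delta-5 desaturase of polyunsaturated fatty acids (ENSMUSG00000010663, protein-coding, chromosome 19, 10182888 to 10196870), was the least abundant of the 10 per kilobase, with 20.0 to 148 counts per library. Levels ran from 5.06 through a median of 9.06 to 14.3 CPM in Sgo1-/+, against 5.33, 6.55 and 10.8 CPM in wild type. The log2 change in Fads1 was 0.30 ± 0.27 (edgeR unadjusted p = 0.280, adjusted p = 0.738). Without Sgo1-/+ replicate 1, the highest library, it was 0.13, and without wild type replicate 2 it was 0.47. No difference in Fads1 was detected.

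Levels per kilobase of exon, in GENCODE M21, are given as CPM per kilobase and by genotype, since the order of the genes differed between the genotypes. In Sgo1-/+ the order was Scd2 at 74.2 ± 14.9, Acly at 31.2 ± 11.4, Scd1 at 19.1 ± 13.8, Elovl6 at 18.2 ± 3.85, Srebf2 at 17.4 ± 1.85, Me1 at 11.1 ± 4.98, Fasn at 9.34 ± 1.58, Srebf1 at 6.06 ± 1.49, Acaca at 4.43 ± 0.32 and Fads1 at 1.90 ± 0.70 (SD, n = 6). In wild type it was Scd2 at 41.9 ± 16.9, Elovl6 at 23.5 ± 2.82, Acly at 18.2 ± 4.97, Srebf2 at 15.2 ± 1.65, Me1 at 13.7 ± 4.71, Scd1 at 9.68 ± 2.67, Fasn at 6.37 ± 1.37, Acaca at 5.15 ± 0.65, Srebf1 at 4.23 ± 1.095 and Fads1 at 1.52 ± 0.44 (SD, n = 6). Scd2 stood first and Fads1 last in both. Neighbours in these orders overlapped in mean ± SD, except Scd2 and Acly, Fasn and Srebf1, and Acaca and Fads1 in Sgo1-/+, and Srebf1 and Fads1 in wild type. Exons of all transcripts of a gene were joined for the length, which came to 17.1 kilobases for Acaca and 10.9 for Fasn, so that a level is understated where most RNA is a shorter form. Within Sgo1-/+ the SD of log2 CPM was smallest for Acaca, at 0.10, against 0.18 in wild type. Within wild type it was smallest for Srebf2, at 0.16, and the SD of Srebf2 in Sgo1-/+ was also 0.16. The largest SD was that of Scd1 in Sgo1-/+, at 1.14, against 0.43 in wild type.

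Several other measures were set beside these levels library by library, and no correlation was computed. A list of 12 adipocyte markers summed to between 186 and 442 CPM in Sgo1-/+ and between 200 and 298 CPM in wild type. Of the 8 that were tested 5 were higher and 3 lower in Sgo1-/+, with Cfd at 2.74 ± 1.05, Car3 at 2.22 ± 0.92 and Fabp4 at 2.16 ± 1.01 (log2 change ± SE, adjusted p between 0.527 and 0.550 in edgeR). The 3 lower ones were the hormone gene Lep at -1.69 ± 0.93, the lipid droplet gene Cidec at -0.28 ± 0.28 and the lipase gene Lpl at -0.21 ± 0.25 (adjusted p between 0.596 and 0.809 in edgeR). Adipoq, which adipocytes alone make in quantity, had 6.17, 13.0 and 8.44 CPM in replicates 1, 4 and 6 of Sgo1-/+ and at most 1.39 CPM in the other 3, while it reached 4.02 CPM in wild type and was at 0 in wild type replicates 4 and 6. These 3 Sgo1-/+ libraries were also the highest for Scd1. Wild type replicates 3 and 5 had the highest summed adipocyte markers of that genotype, at 298 and 287 CPM. Their Scd1 levels were the lowest in wild type, at 38.9 and 27.99 CPM. With the summed adipocyte markers as a covariate the log2 change of Scd1 was 0.28 ± 0.36, while Fasn stayed at 0.50 ± 0.17 and Scd2 at 0.90 ± 0.26. Some of the 12 markers, such as Lpl and Pck1, are made by other cells too, so the sum does not measure adipocytes alone. In wild type replicate 4 it was 200 CPM, while Adipoq, Cfd, Car3 and Fabp4 were at 0, 0.29, 2.02 and 0.58 CPM. Cidec and Lep were at 15.7 and 6.63 CPM there, so most of the sum came from the other markers. The part of adipocyte RNA in the Scd1 difference was not tested beyond this fit.

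A list of 5 distal colon markers (Hoxb13, Hoxa13, Hoxd13, Hoxd12 and Insl5) summed to between 51.8 and 332 CPM in Sgo1-/+ and between 46.5 and 135 CPM in wild type. The 4 that were tested were all higher in Sgo1-/+, with a median log2 change of 1.04. The sum was highest in Sgo1-/+ replicates 2, 4 and 5, at 332, 246 and 252 CPM, the libraries that also stood highest for Acly. Within wild type the sum was highest in replicate 5, at 135 CPM, where Acly was at 96.2 CPM. Wild type replicate 2 had a sum of 56.8 CPM and Acly at 115 CPM. With the mean log2 CPM of these markers as a covariate, an alternative added after the data were seen, the log2 change was 0.47 ± 0.24 for Acly, -0.26 ± 0.13 for Elovl6 and -0.031 ± 0.23 for Me1, while Fasn was at 0.55 ± 0.17 and Scd1 at 1.09 ± 0.47. The share of mitochondrial-like rows was highest in Sgo1-/+ replicate 3 and wild type replicates 3 and 5. Sgo1-/+ replicate 3 was the lowest Sgo1-/+ library for Srebf1, Srebf2, Acly, Fasn, Scd1 and Scd2. Fitted with that share the log2 change was 0.43 ± 0.22 for Acly, 0.31 ± 0.34 for Scd1, 0.37 ± 0.11 for Fasn and 0.64 ± 0.19 for Scd2. None of these fits gave a member an adjusted p under 0.05 in edgeR.

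**Figure D2:**
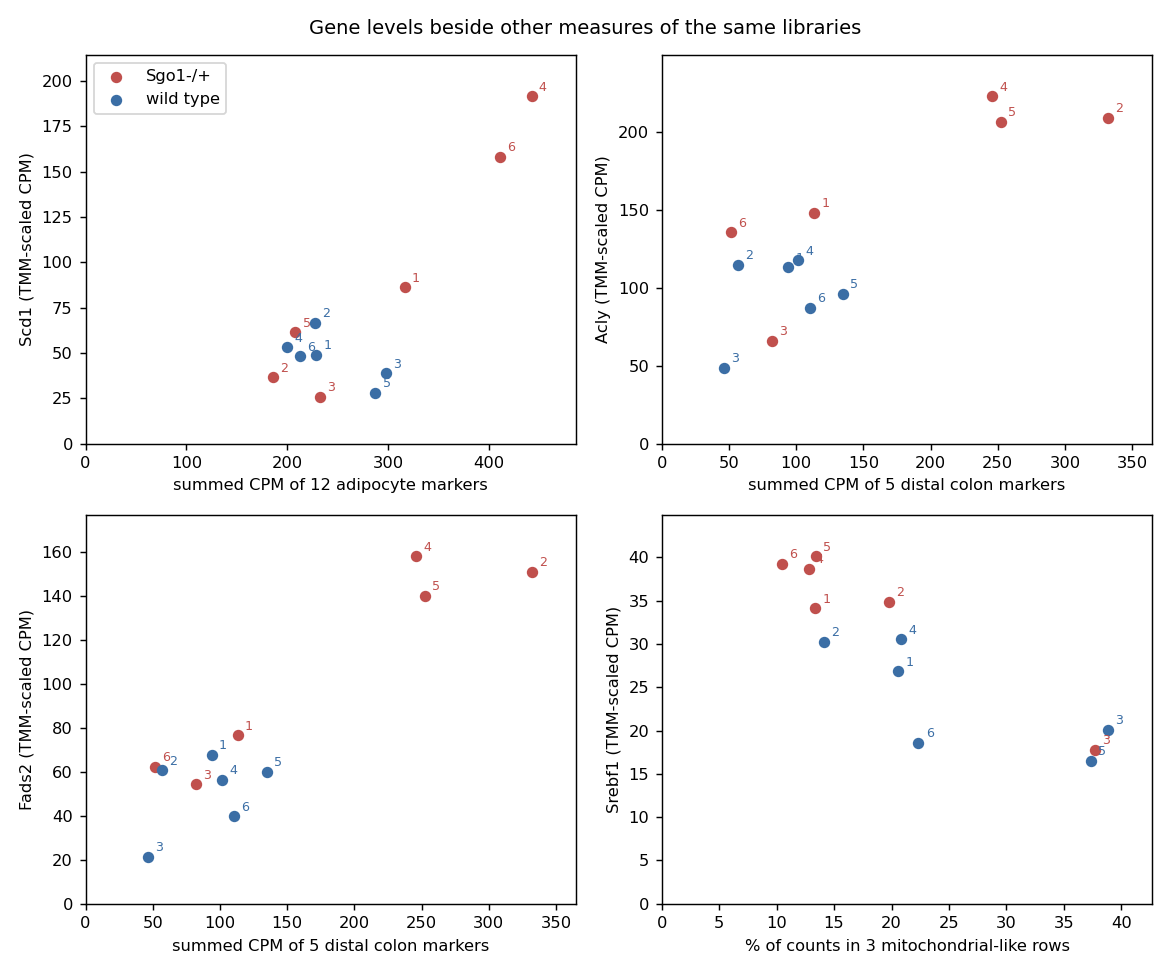
Levels in TMM-scaled CPM (y axes, from 0) of Scd1 beside the summed adipocyte markers, of Acly and Fads2 beside the summed distal colon markers, and of Srebf1 beside the percentage of counts in 3 mitochondrial-like rows, with 1 numbered point per library. Within these 12 libraries Scd1 was highest in the 3 Sgo1-/+ libraries with the most adipocyte marker RNA, Acly and Fads2 in the 3 with the most distal colon marker RNA, and Srebf1 was at most 20.1 CPM in the 3 libraries richest in mitochondrial-like rows. Wild type replicates 3 and 5 had the most adipocyte marker RNA of that genotype and its lowest Scd1, at 38.9 and 27.99 CPM.

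**Figure D3:**
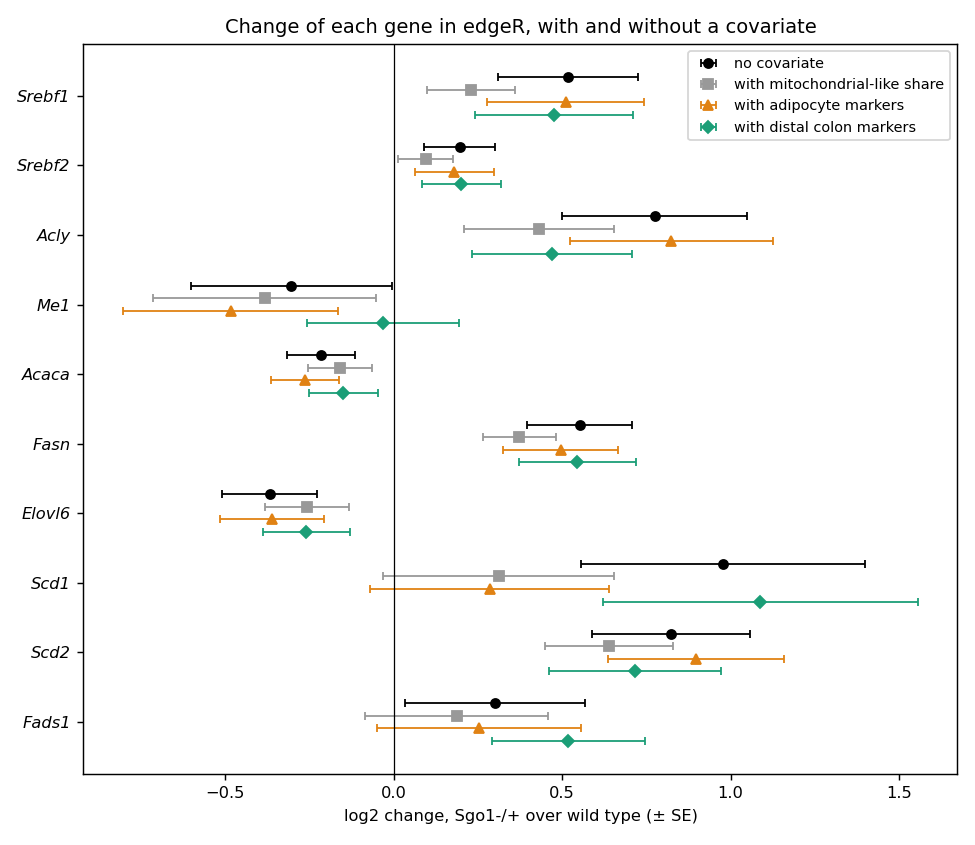
Log2 change of Sgo1-/+ over wild type with its SE (x axis) for each of the 10 genes in edgeR, without a covariate and with each of 3 covariates. Fasn and Scd2 kept values between 0.37 and 0.90 in all 4 fits, whereas Scd1 was at 0.98 without a covariate and at 0.28 with adipocyte markers.

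The column names of Sgo1-/+ replicates 5 and 6 and wild type replicates 1 and 6 carry a suffix that the other 8 lack, and the labels do not say what it stands for. Among the 8 libraries without it (4 per genotype) Sgo1-/+ minus wild type in mean log2 CPM was 0.88 for Scd2, 0.71 for Acly, 0.50 for Scd1, 0.44 for Fasn, 0.35 for Srebf1, 0.15 for Srebf2 and 0.083 for Fads1. The 4 libraries with it, 2 per genotype, gave 0.91, 0.75, 1.02, 0.80, 0.82, 0.29 and 0.64 for the same genes in that order. For the 3 lower genes the differences without the suffix were -0.35 for Elovl6, -0.25 for Acaca and -0.29 for Me1, and those with it were -0.45, -0.12 and -0.40. Each of the 10 differences thus had the same sign in both sets. How often the sign was the same over all genes was not computed.

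Other genes of lipid synthesis were read from lists. Of 15 genes that process or regulate SREBPs and related factors, 9 were higher and 6 lower in Sgo1-/+, with a median log2 change of 0.037. At an unadjusted edgeR p under 0.05 there was 1, against 9.04% of all genes tested. That was Rxra, a nuclear receptor partner, at -0.20 ± 0.09 (log2 change ± SE). It was followed by Prkaa1, a catalytic subunit of AMP-activated kinase, at -0.24 ± 0.13 and Mlxipl, which encodes the carbohydrate response factor ChREBP, at 0.26 ± 0.16. Genes of SREBP retention and cleavage, named here for their role, were at -0.025 ± 0.14 for the escort Scap, -0.00062 ± 0.19 for the anchor Insig1, -0.14 ± 0.22 for Insig2, 0.18 ± 0.15 for the protease Mbtps1 and 0.055 ± 0.18 for Mbtps2.

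A list of 32 further genes of fatty acid synthesis, elongation and desaturation had 28 tested, of which 16 were higher and 12 lower, with a median of 0.048. Of these 4 were higher and 1 lower at an unadjusted edgeR p under 0.05, against 4.31% and 4.73% of all genes tested. The lower one was Acacb, the mitochondrial-membrane acetyl-CoA carboxylase 2, at 17.1 ± 3.07 CPM in Sgo1-/+ and 25.6 ± 4.63 CPM in wild type (SD, n = 6 each), a log2 change of -0.59 ± 0.15. Acss2, which makes acetyl-CoA from acetate, was at 71.4 ± 12.8 CPM in Sgo1-/+ and 50.4 ± 8.89 CPM in wild type, a log2 change of 0.50 ± 0.14. Fads2, the delta-6 desaturase that lies beside Fads1, was at 107 ± 47.6 CPM in Sgo1-/+ and 51.0 ± 17.3 CPM in wild type, a log2 change of 1.07 ± 0.32. Its highest libraries were Sgo1-/+ replicates 2, 4 and 5, at 151, 158 and 140.1 CPM, and with the distal colon markers as a covariate its log2 change was 0.58 ± 0.21. The adjusted p of each of the 3 was 0.491 in edgeR.

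Among 8 genes of NADPH supply 3 were higher and 5 lower, with a median of -0.031. Aldh1l1, a folate enzyme that yields NADPH, was at 43.5 ± 20.3 CPM in Sgo1-/+ and 18.9 ± 4.79 CPM in wild type. Its log2 change of 1.20 ± 0.30 had an adjusted p of 0.491 in edgeR and 0.0409 in DESeq2, the one gene of these lists that DESeq2 called. It reached 67.3, 64.9 and 51.4 CPM in replicates 2, 4 and 5 of Sgo1-/+ and between 22.02 and 29.1 CPM in the other 3, and with the distal colon markers as a covariate the log2 change was 0.68 ± 0.14. Mthfd1, another folate enzyme, was at 0.58 ± 0.32 and the pentose phosphate gene Taldo1 at -0.19 ± 0.13. In triglyceride and phospholipid assembly 16 of 17 genes were tested, and 5 were higher and 11 lower. At an unadjusted edgeR p under 0.05, 3 were lower, against 4.73% of all genes tested. These were the phosphatidate phosphatase gene Lpin2 at -0.54 ± 0.16, the acyltransferase gene Agpat2 at -0.36 ± 0.13 and Dgat2, which completes triglycerides, at -0.45 ± 0.20.

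Cholesterol synthesis and uptake genes, the main targets of SREBP-2, were higher in Sgo1-/+ in 20 of 22, with a median of 0.22. At an unadjusted edgeR p under 0.05, 6 of the 22 were higher, against 4.31% of all genes tested. Among these were the squalene epoxidase gene Sqle at 0.44 ± 0.13 and the sterol reductase gene Tm7sf2 at 0.41 ± 0.14 (log2 change ± SE, adjusted p between 0.491 and 0.524 in edgeR). Without the 3 libraries highest in mitochondrial-like rows 18 of the 22 were higher, with a median of 0.19. In that fit 4 were at an unadjusted edgeR p under 0.05, against 11.6% of all genes. The median was 0.12 without wild type replicate 6, and 16 were higher when the mitochondrial-like share was fitted. Under scaling by total counts the numbers higher were 22 of 22 for cholesterol genes, 15 of 15 for SREBP regulators, 24 of 28 for the further fatty acid genes, 8 of 8 for NADPH supply and 11 of 16 for triglyceride and phospholipid assembly. All lists here were chosen with earlier results of these data known. Over all genes tested 49.0% had a log2 change above 0 with TMM scaling, all libraries and no covariate. That share was not computed for the other fits, and under scaling by total counts the median of all genes was 0.31.

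**Figure D4:**
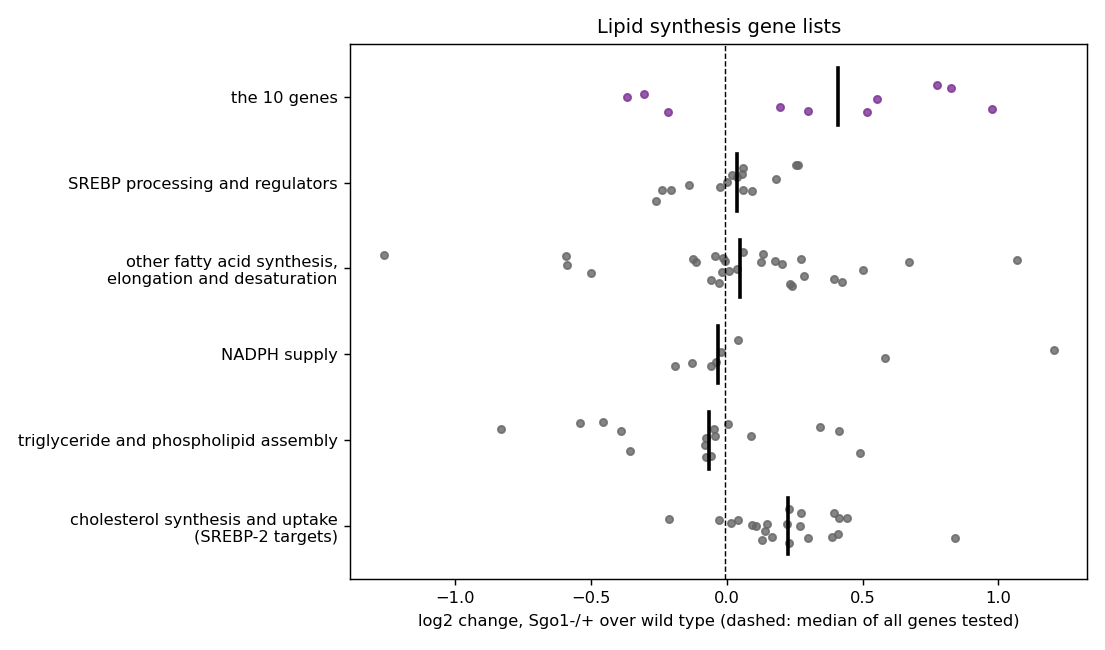
Log2 change of Sgo1-/+ over wild type in edgeR (x axis) for the 10 genes and 5 lists of lipid synthesis genes, with 1 point per gene tested, the list median as a bar and the median of all genes tested as a dashed line. The medians were 0.41 for the 10 genes and 0.22 for cholesterol genes, and between -0.066 and 0.048 for the other lists.

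Genes with the most similar profile were sought by the mean absolute difference of log2 CPM, each gene centred on its own mean over the 12 libraries, among 11928 genes. For Fasn, whose own mean deviation was 0.32 log2, they were Nup153 at 0.087, Slx4 at 0.100, Nol6 at 0.12 and Pygb at 0.13. Among the 10 genes Srebf1 was the nearest to Fasn, at 0.17, followed by Srebf2 at 0.20, and the farthest was Me1 at 0.64. For Scd2, whose mean deviation was 0.51 log2, the nearest genes were Atxn10 at 0.19, Cep55 at 0.19, Foxa2 at 0.23 and Tubgcp2 at 0.23, and the nearest of the 10 was Srebf1 at 0.30.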

How the data were processed

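Per the labels' protocols, RNA of colonic mucosa was taken up in Trizol, mRNA was purified, and TruSeq libraries were run on a MiSeq. The submitters' processing notes name DESeq and build mm10. The aligner, the counter and whether strand was used are not given in the sources. The authors deposited expected counts for each gene, of which 69.6% of those above 0 were fractional (tolerance 0). The authors also deposited log2 normalized values, which entered no test.

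Counts were rounded. Of 38592 rows, 505 had no Ensembl identifier and were dropped, which removed 1.79% to 5.40% of the counts in each library. Genes were tested with edgeR 4.0.16 (glmQLFit, glmQLFTest, TMM; filterByExpr, minimum count 10, minimum total 15) in R 4.3.3, with Benjamini-Hochberg adjustment over 13889 genes and a threshold of 0.05. The SE is the absolute log2 change divided by the square root of F, and 2 was the prior count for log2 CPM. Exact two-sided permutation used all 924 splits. DESeq2 1.42.0 and limma 3.58.1 (voom), other scalings and filters, covariates, a replicate block and left-out libraries were alternatives. The edgeR fit was also run on counts simulated from the means and dispersions of these data with known changes added, and its calls are not reported here. No 2 libraries were identical, and replicates differed by a chi-square of at least 14.7 for each degree of freedom.

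The 10 genes, lists and tests were chosen with earlier results of these data known. All 10 genes are named, with the 3 genes of smallest p per list at a mean of at least 5 counts, and the 4 genes nearest to Fasn and Scd2 at a mean of at least 10 counts. One gene that this rule names is not reported here. Exceptions are the SREBP retention and cleavage genes, Adipoq and the adipocyte markers that were lower. Symbols came from the files. Fads2, Aldh1l1 and the adipocyte, distal colon and mitochondrial-like values by library are shown because they stood out.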

Additional observations from a re-analysis of the deposited data

Results flagged for a closer look

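The level of Srebf1 in Sgo1-/+ replicate 3, 17.8 CPM, was far below the other 5 Sgo1-/+ libraries, which lay between 34.1 and 40.1 CPM. It was picked out by Dixon's test of the gap to the nearest library over the range of the group, applied to 20 groups of 6 libraries, of which chance alone marks about 1 in 20. This library had 37.7% of its counts in mitochondrial-like rows, against 10.4% to 19.8% in the other Sgo1-/+ libraries. The part of that share in the low level was not tested.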

How the results depend on the processing

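The 25 alternatives refit all or part of the same 12 libraries, so their results are not independent of each other. The direction of the log2 change was the same in 248 of 250 combinations of the 10 genes and 25 alternatives, and none gave a member an adjusted p under 0.05. The exceptions came with scaling by total counts, which moved the median of all genes to 0.31 and put Me1 at 0.071 and Acaca at 0.12 in edgeR, and at 0.00082 and 0.12 in the exact permutation of log2 CPM. Relative to that median Me1 was at -0.24, Acaca at -0.19, Fasn at 0.55 and Scd2 at 0.80. Of all genes DESeq2 called 30 and edgeR fitted with the mitochondrial-like share called 1, against 0 in edgeR without it and in limma-voom. At an unadjusted p under 0.05 there were 7 members with all libraries (9.04% of all genes), 2 with the mitochondrial-like share (10.1%), 4 with distal colon markers (6.46%), 1 among libraries without the suffix (3.98%) and 3 to 8 when single libraries were left out. The count was 8 without Sgo1-/+ replicate 3 (18.2% of all genes) and 3 without wild type replicate 3 (6.44%). It was 4 without wild type replicate 5 (7.71%), Sgo1-/+ replicate 4 (6.45%) or Sgo1-/+ replicate 5 (5.93%). Counts of list genes higher under total-count scaling were 15 for SREBP regulators, 8 for NADPH supply and 11 for triglyceride and phospholipid assembly. With the mitochondrial-like share they were 5 for SREBP regulators and 8 for triglyceride and phospholipid assembly. For NADPH supply they ran from 2 to 6 without single libraries, reaching 6 when Sgo1-/+ replicate 3 was left out and 5 when wild type replicate 2 or 4 was. Two-sided exact permutation p-values moved below 0.05 in 9 cases, namely for Srebf1 without Sgo1-/+ replicate 3 or wild type replicate 2 or 4, for Srebf2 without Sgo1-/+ replicate 2 or 3 or wild type replicate 1, 2 or 4, and for Acly without Sgo1-/+ replicate 3. They moved above it in 9 cases, namely for Elovl6 under total counts, at -0.051, and for Acaca without Sgo1-/+ replicate 1, 2, 4 or 5 or wild type replicate 1, 2, 3 or 5. The cause was not tested.

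Same-numbered libraries of the 2 genotypes shared only a number, with correlations of their deviations from the group means between -0.298 and 0.454, and own numbers matched best in 0 of 6. With the number as a replicate block 0 genes were called and 5 members were at an unadjusted p under 0.05 (11.8% of all genes), with Acly at an adjusted p of 0.182 and Scd2 at 0.182 in edgeR.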
